A study of Sus scrofa with 12 samples.

Results

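Heat shock chaperones are proteins that keep other proteins folded, and many of them are made in larger amounts after heat, cold or oxidative injury. In the cytosol, HSP70 proteins bind exposed stretches of unfolded protein in an ATP-driven cycle that J proteins start and nucleotide exchange factors reset, and HSP90 finishes the folding of kinases and receptors with the help of co-chaperones. In mitochondria, a barrel of HSP60 closed by a lid of HSP10 folds imported proteins. Small heat shock proteins hold denatured proteins in a soluble state without using ATP. The genes described here are 10 such chaperones that act outside the endoplasmic reticulum (ER), chosen by name with earlier results of these data known. They are HSPA8, HSPH1, DNAJA1 and DNAJB1 of the HSP70 system, HSP90AA1, HSP90AB1 and PTGES3 of the HSP90 system, HSPD1 and HSPE1 of mitochondria, and the small heat shock protein HSPB1. Their symbols were matched to Ensembl pig gene identifiers, and 9 of the 10 had a row among the 31781 identifiers of the deposited table. HSP90AA1, the stress-inducible HSP90, was not analysed here. All 9 passed the filter on low values, which kept 9411 genes.

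The libraries came from pig (Sus scrofa) blastocysts grown from parthenogenetically activated eggs, which develop without sperm. There were 3 libraries of vitrification II, 3 of vitrification I, 2 of the group labelled vitrification without a further mark, and 3 of the fresh control, which was not vitrified. The labels list a 3rd vitrification library, which was not analysed here. Vitrification is cooling so fast that water forms a glass, and liquid helium is named in the series title. Which group it was used for, and how the vitrified groups differed in procedure, is not told by the labels. Breed, embryo age and the time between warming and lysis are not given in the sources used here. The source of each library is given as blastocyst, while the protocol, Smart-Seq2, speaks of sorted single cells, so a library may be 1 cell or more. Nothing says that libraries of a group came from separate batches of embryos, so every p-value reflects the spread among the libraries at hand, which may be technical.

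Values are FPKM, fragments scaled to gene length and library total, so levels can be set side by side between genes. Sequencing depth is unknown, as counts were not among the values used. A change is given as the difference between group means on the log2(FPKM + 1) scale with its SE, from limma fitted to all 9411 genes. That scale understates the change of low genes. Called means a Benjamini-Hochberg adjusted p below 0.05. The 13 protein-coding genes of the mitochondrial genome took 16.9% to 22.1% of the FPKM in vitrification II, 43.8% to 64.3% in vitrification I, 38.7% to 51.8% in vitrification and 37.6% to 43.9% in fresh control. The median log2 change of all genes was 0.62 in vitrification II, -0.064 in vitrification I and 0.19 in vitrification, each against fresh control. The trophectoderm markers, which mark the outer layer of the blastocyst, summed to 13736 to 22053 FPKM in vitrification II, 2751 to 6060 in vitrification I, 6640 to 17030 in vitrification and 10495 to 15527 in fresh control, with all 10 markers found in the table at 1 FPKM or more in at least 1 library of each group. KRT8 and KRT18 made up most of that sum, and not all of its markers followed it. TFAP2A, a trophectoderm transcription factor, had 50.4, 88.6 and 133 FPKM in vitrification II, 154, 95.8 and 121 in vitrification I, 20.9 and 35.4 in vitrification, and 13.7, 9.42 and 6.21 in fresh control. GATA3 had 39.6, 52.3 and 24.5 FPKM in vitrification II, 64.9, 50.8 and 20.9 in vitrification I, 21.1 and 34.3 in vitrification, and 21.1, 42.6 and 31.4 in fresh control. The 5 epiblast markers in the table, which mark the inner cells that form the embryo, summed to 195 to 291 FPKM in vitrification II, 69.96 to 269 in vitrification I, 40.3 to 71.9 in vitrification and 86.0 to 163 in fresh control. DPPA5 made up most of that sum in every library. Of the 5 epiblast markers, LIN28A had 24.5 to 81.6 FPKM in vitrification II and 0.328 to 1.66 in vitrification I. It had 0.831 to 3.08 in vitrification and 6.44 to 9.497 in fresh control. The others did not all follow LIN28A. DPPA5 was highest in vitrification I replicate 2 (263 FPKM), and NANOG and KLF4 in vitrification replicate 2 (7.97 and 14.7 FPKM). LIN28B was highest in vitrification II replicate 2 (1.57 FPKM). Genes above 0 numbered 15415 to 16204 in vitrification II, 11550 to 14039 in vitrification I, 17726 to 18527 in vitrification and 15383 to 16046 in fresh control. Hypoblast markers summed to 19.7 to 28.5 FPKM in vitrification II, 16.6 to 24.0 in vitrification I, 18.6 to 49.1 in vitrification and 10.98 to 20.7 in fresh control. Maternal oocyte markers summed to 4.06 to 17.2, 3.85 to 6.54, 5.38 to 5.96 and 6.51 to 7.67 FPKM in the same order. The 17.2 was in vitrification II replicate 2. Cumulus or granulosa markers summed to at most 4.03 FPKM and leukocyte and erythroid markers to at most 16.2 FPKM in any library. The part of these differences in the results below was not tested, and fewer cells of a type and less RNA per cell cannot be told apart in such libraries.

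**Figure D1:**
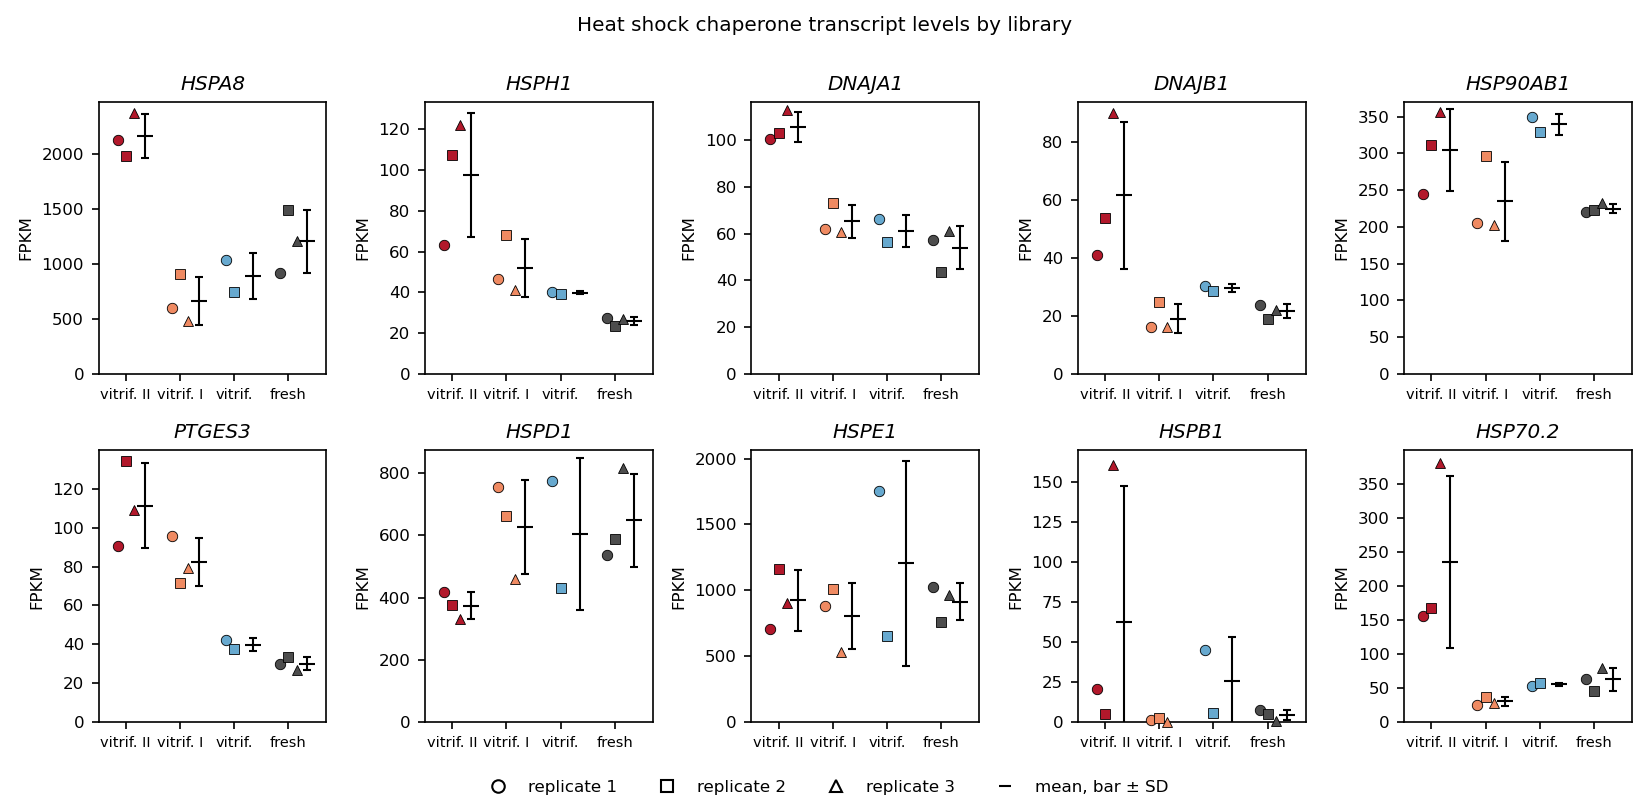
FPKM of the 9 measured chaperone genes and of HSP70.2 in each of the 11 libraries, with the group on the horizontal axis and the replicate number as the symbol. Horizontal ticks are group means and bars the SD, left out where a library is listed at 0. HSPA8, HSPH1, DNAJA1, DNAJB1, HSP90AB1, PTGES3 and HSP70.2 stood higher in every vitrification II library than in any fresh control library, and HSPD1 stood lower.

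HSPA8, the HSP70 that cells make at all times, was the most abundant of these transcripts in vitrification II. It had 2127, 1979 and 2374 FPKM in vitrification II, 596, 905 and 484 in vitrification I, 1038 and 743 in vitrification, and 914, 1493 and 1208 in fresh control. Its rank among all 31781 identifiers was 20 at best and 73 at worst. Vitrification II lay above every other library and vitrification I below every fresh control library. HSPA8 was higher in vitrification II than in vitrification I by 1.75 ± 0.33 on the log2 scale (limma, adjusted p = 0.0011). Against fresh control the changes were 0.87 ± 0.33 in vitrification II (adjusted p = 0.0663) and -0.88 ± 0.33 in vitrification I (0.0759), and vitrification II against vitrification gave 1.29 ± 0.37 (0.0525). None of these 3 was called. The first became a call when vitrification I lost replicate 2 (adjusted p = 0.0465) or 3 (0.0491), after quantile normalization (0.0155) and when only those 2 groups were fitted (0.0289). The second became one when vitrification I lost replicate 2 (0.0297). The third did when fresh control lost replicate 1 (0.0406) or vitrification I lost replicate 2 (0.0353) or 3 (0.0368), and after quantile normalization (0.0405).

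HSPH1, the HSP110 protein that releases ADP from HSP70 and so resets its cycle, had 63.2, 107 and 122 FPKM in vitrification II, 46.8, 68.2 and 41.2 in vitrification I, 40.2 and 39.4 in vitrification, and 27.5, 23.6 and 26.8 in fresh control. All libraries of the 3 vitrified groups lay above all fresh control libraries, and vitrification I overlapped vitrification II. HSPH1 rose by 1.82 ± 0.35 in vitrification II against fresh control (limma, adjusted p = 0.00256), which is 1.20 above the median of all genes. The change in vitrification I was 0.95 ± 0.35 (adjusted p = 0.0705), which passed when FPKM were rescaled to a total without mitochondrially encoded genes, the non-mitochondrial total below (1.43, adjusted p = 0.00797) and after quantile normalization (1.05, adjusted p = 0.0226). In vitrification it was 0.60 ± 0.39 (adjusted p = 0.450). Over vitrification I, vitrification II gave 0.87 ± 0.35 (adjusted p = 0.0591), called without vitrification I replicate 2 (0.0275) or vitrification II replicate 1 (0.0352). Over vitrification, vitrification II gave 1.22 ± 0.39 (adjusted p = 0.0697), called without vitrification I replicate 3 (0.0490).

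DNAJB1, the HSP40 J protein that stimulates HSP70 and is itself heat-inducible, had 41.0, 53.7 and 89.9 FPKM in vitrification II, 16.3, 24.8 and 16.0 in vitrification I, 30.4 and 28.6 in vitrification, and 23.9, 19.1 and 22.2 in fresh control. Vitrification II stood above every other library, while vitrification I and fresh control overlapped. It rose by 1.39 ± 0.36 in vitrification II against fresh control (limma, adjusted p = 0.0127), a call that ended without fresh control replicate 2 (0.0588) or vitrification II replicate 3 (0.0692) and after quantile normalization (0.135). Against vitrification I it was higher by 1.60 ± 0.36 (adjusted p = 0.00332), and this call ended on the non-mitochondrial total (0.0539). In vitrification I and vitrification against fresh control the values were -0.20 ± 0.36 and 0.43 ± 0.40 (adjusted p = 0.735 and 0.619). Its change in vitrification II over vitrification was 0.96 ± 0.40 (adjusted p = 0.140).

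DNAJA1, a second J protein of the cytosol, had 101, 103 and 113 FPKM in vitrification II, 61.8, 73.3 and 60.7 in vitrification I, 66.1 and 56.4 in vitrification, and 57.3, 43.6 and 61.2 in fresh control. Vitrification II again lay above every other library, and the other 3 groups overlapped. Its rise in vitrification II against fresh control was 0.97 ± 0.31 (limma, adjusted p = 0.0319), only 0.34 above the median of all genes. The call ended without fresh control replicate 2 (adjusted p = 0.145) or 3 (0.0714), without vitrification II replicate 1 (0.0744), 2 (0.0811) or 3 (0.0976), after quantile normalization (0.139) and on the non-mitochondrial total (0.0790). Vitrification II gave 0.69 ± 0.31 against vitrification I (adjusted p = 0.0876) and 0.78 ± 0.34 against vitrification (0.158), neither called. In vitrification I and vitrification against fresh control the changes were 0.28 ± 0.31 and 0.19 ± 0.34 (adjusted p = 0.564 and 0.822).

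A heat-inducible HSP70 of the pig carries the symbol HSP70.2 in the table of gene names, and RefSeq (Sscrofa11.1) lists HSPA1A and HSPA1B as its synonyms, both on the list of related genes used below. It is not one of the 10 genes and is given because it is a classical stress-inducible partner of HSPA8. HSP70.2 had 155, 168 and 381 FPKM in vitrification II, 25.1, 37.0 and 27.97 in vitrification I, 53.3 and 56.8 in vitrification, and 62.5, 45.1 and 79.5 in fresh control. Vitrification I lay below every other library and vitrification II above every other library. In vitrification II it rose by 1.81 ± 0.39 against fresh control (limma, adjusted p = 0.00498) and was higher than in vitrification I by 2.82 ± 0.39 (adjusted p = 0.000134). Against vitrification it was higher by 1.95 ± 0.43 (adjusted p = 0.0249), a call that ended when vitrification replicate 1 (0.122) or 2 (0.108) was left out, or vitrification II replicate 2 (0.0628) or 3 (0.0804). It also ended on the non-mitochondrial total (0.0905), after quantile normalization (0.0630), with a pseudocount of 0.1 (0.0543) and after centring on the library median (0.0669), and held under 10 of the 18 alternative fits. In vitrification I against fresh control its change was -1.01 ± 0.39 (adjusted p = 0.0814). HSPA6, another HSP70 of that list, had 0 to 38.6 FPKM in vitrification II and 0 to 0.848 in vitrification I. It had 0.299 to 1.15 in vitrification and 0 to 0.675 in fresh control.

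HSP90AB1, the HSP90 that cells make at all times, had 245, 311 and 357 FPKM in vitrification II, 205, 297 and 202 in vitrification I, 350 and 329 in vitrification, and 219.6, 223 and 232 in fresh control. The vitrification group lay above every vitrification I and fresh control library, vitrification II lay above fresh control, and vitrification I overlapped both vitrification II and fresh control. HSP90AB1 was not called in any of the 6 pairs of groups (limma, adjusted p = 0.323 to 0.947), and its F test over the 4 groups gave an adjusted p = 0.322. Its changes against fresh control were 0.42 ± 0.31 in vitrification II, 0.039 ± 0.31 in vitrification I and 0.59 ± 0.34 in vitrification. How the authors' counting divided reads between HSP90AB1 and its close relative HSP90AA1, or between any chaperone and its processed copies, is not given in the sources used here, so these levels are uncertain to that extent.

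PTGES3 encodes p23, the co-chaperone that holds HSP90 in its closed, ATP-bound form and that also acts as a prostaglandin E synthase. It had 90.7, 134 and 109 FPKM in vitrification II, 96.0, 71.7 and 79.5 in vitrification I, 42.4 and 37.4 in vitrification, and 29.95, 33.3 and 26.5 in fresh control. Vitrification II and vitrification I overlapped, and all of their libraries lay above those of vitrification, which in turn lay above those of fresh control. PTGES3 rose by 1.85 ± 0.31 in vitrification II and by 1.43 ± 0.31 in vitrification I against fresh control (limma, adjusted p = 0.0013 and 0.00726), which is 1.23 and 1.49 above the median of all genes. Of the 9 genes, PTGES3 had the lowest adjusted p in the F test over the 4 groups (0.00162). In vitrification against fresh control its change was 0.40 ± 0.35 (adjusted p = 0.586). Vitrification II gave 0.42 ± 0.31 against vitrification I (adjusted p = 0.303), and vitrification I gave 1.02 ± 0.35 against vitrification (0.0971), neither called. Against vitrification, vitrification II was higher by 1.44 ± 0.35 (adjusted p = 0.0318), but this call ended without fresh control replicate 3 (0.0515), vitrification replicate 1 (0.115) or 2 (0.131) or vitrification II replicate 1 (0.0632), 2 (0.107) or 3 (0.0839), on the non-mitochondrial total (0.168) and after quantile normalization (0.141).

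**Figure D2:**
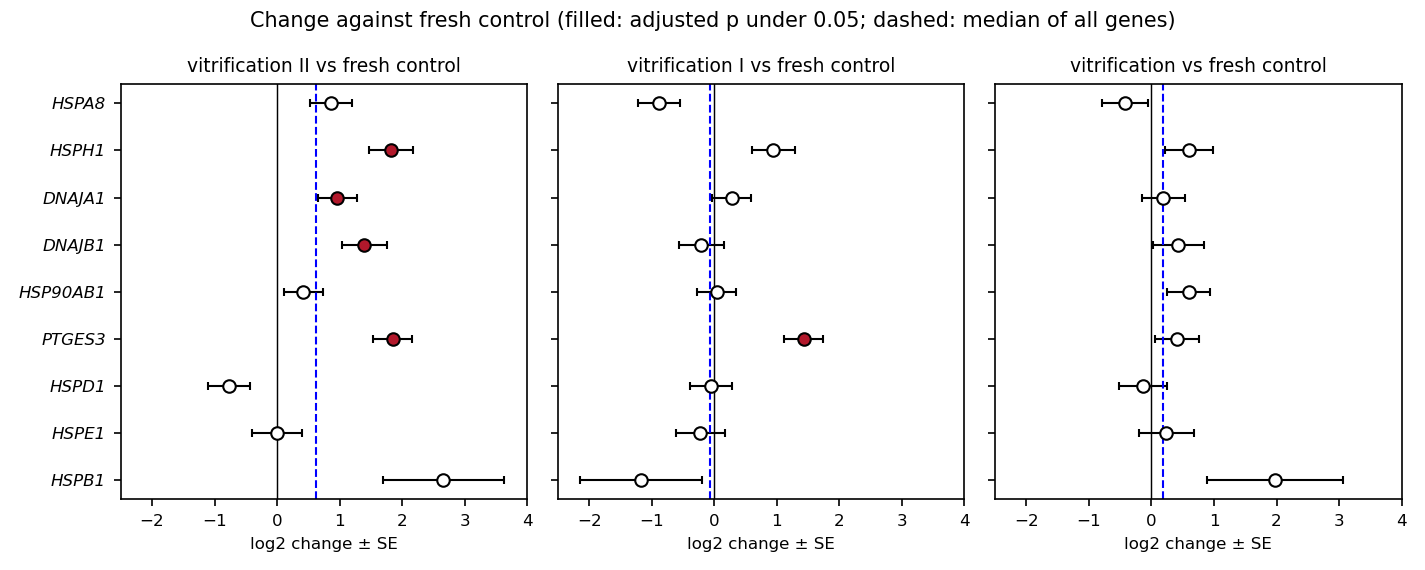
Log2 change (horizontal axis) of each of the 9 genes against fresh control in vitrification II, vitrification I and vitrification, with bars of 1 SE. Filled points passed an adjusted p under 0.05, the solid line is no change and the dashed line is the median of all genes, at 0.62, -0.064 and 0.19. PTGES3 passed in vitrification II and vitrification I, HSPH1, DNAJA1 and DNAJB1 in vitrification II, and no gene passed in vitrification.

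HSPD1, the mitochondrial chaperonin HSP60, had 417, 376 and 331 FPKM in vitrification II, 757, 663 and 460.2 in vitrification I, 776 and 431 in vitrification, and 538, 589 and 818 in fresh control. It ran against the cytosolic genes, since all 3 vitrification II libraries were lower than every other library. The change in vitrification II was -0.77 ± 0.34 against fresh control (limma, adjusted p = 0.104) and -0.72 ± 0.34 against vitrification I (adjusted p = 0.108), neither called, where the median of all genes lay at 0.62 and 0.68. On the non-mitochondrial total HSPD1 was called lower against both, by -0.91 (adjusted p = 0.0462) and -1.36 (adjusted p = 0.00364), and after quantile normalization lower against vitrification I only (-1.30, adjusted p = 0.00458). Against fresh control it was also called lower when only those 2 groups were fitted (adjusted p = 0.0461). Vitrification II gave -0.63 ± 0.38 against vitrification (adjusted p = 0.289). The changes of vitrification I and vitrification against fresh control were -0.056 ± 0.34 and -0.14 ± 0.38 (adjusted p = 0.931 and 0.891), and their sign turned on the non-mitochondrial total.

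HSPE1, the HSP10 lid of the same chaperonin, had 705, 1163 and 903 FPKM in vitrification II, 879, 1013 and 529 in vitrification I, 1756 and 654 in vitrification, and 1025, 758 and 961 in fresh control. All 4 groups overlapped. None of its 6 changes was called (limma, adjusted p = 0.572 to 0.996), and in vitrification II against fresh control the change was -0.0040 ± 0.40. HSPE1 and HSPD1 are neighbours in the RefSeq pig annotation (Sscrofa11.1) with 0 genes between them. Over the 11 libraries the Pearson r of their log2 levels was 0.40, given as a description of libraries that share groups and scaling. In each library HSPE1 had more FPKM than HSPD1. The ratio of HSPD1 to HSPE1 was 0.592, 0.323 and 0.366 in vitrification II, 0.861, 0.654 and 0.869 in vitrification I, 0.442 and 0.6598 in vitrification, and 0.524, 0.778 and 0.851 in fresh control. All vitrification II ratios were below all vitrification I ratios, and they overlapped those of fresh control and vitrification.

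HSPB1, the small heat shock protein HSP27, was the most uneven of the 9. It had 20.8, 5.23 and 161 FPKM in vitrification II, 1.11, 2.65 and 0 in vitrification I, 45.2 and 5.63 in vitrification, and 7.22, 4.71 and 0.8595 in fresh control. Within vitrification II the libraries thus ranged from the level of fresh control to a rank of 428 among all identifiers. HSPB1 was higher in vitrification II than in vitrification I by 3.83 ± 0.97 (limma, adjusted p = 0.00686), a call that ended when no filter on low values was set (0.0931). Against fresh control the change was 2.66 ± 0.97 in vitrification II (adjusted p = 0.0557), called without fresh control replicate 1 (0.0435) or vitrification II replicate 2 (0.0152), -1.17 ± 0.97 in vitrification I (adjusted p = 0.428) and 1.98 ± 1.09 in vitrification (0.363). Vitrification I against vitrification gave -3.15 ± 1.09 (adjusted p = 0.0978), called without vitrification II replicate 3 (0.0441). For vitrification II over vitrification it was 0.68 ± 1.09 (adjusted p = 0.713), with the sign turning to -0.72 without vitrification replicate 2 and to -0.59 without vitrification II replicate 3.

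Counted over the 9 genes, vitrification II against fresh control had 4 higher, HSPH1, DNAJA1, DNAJB1 and PTGES3, and 0 lower by limma, with 7 of 9 at an unadjusted p under 0.05. Of all 9411 genes 24.6% were called higher and 1.09% lower in that comparison, and the median change of the 9 genes was 0.97 against 0.62 for all. How many of all genes had an unadjusted p under 0.05 was not counted, so such counts here and below have no background beside them. The libraries did not overlap for 7 of the 9, of which 6 lay above fresh control and HSPD1 below, where 44% and 3.41% of all genes did so. The count called was 2 without fresh control replicate 2 or without vitrification II replicate 3. Of all genes 986 and 1357 were called higher in those fits, against 2319 in the main fit. Vitrification I against fresh control had 1 higher, PTGES3, and 0 lower, against 8.85% and 9.77% of all genes, with medians of -0.056 and -0.064. With vitrification I replicate 2 left out, HSPA8 was called lower as well. PTGES3 and HSPH1 lay wholly above fresh control and HSPA8 wholly below, against 17.3% and 18.9% of all genes. Vitrification against fresh control had 0 called by limma and 0 of 9 at an unadjusted p under 0.05, against 1.25% of all genes called higher and 0.117% lower, with medians of 0.40 and 0.19. HSPH1, DNAJB1, HSP90AB1 and PTGES3 lay wholly above fresh control and 0 wholly below, where 25.5% and 11.5% of all genes did. These 3 comparisons share the fresh control libraries.

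Among the vitrified groups, vitrification II against vitrification I had 3 higher, HSPA8, DNAJB1 and HSPB1, and 0 lower, against 34.7% and 3.75% of all genes, with a median of 0.69 for the 9 genes and 0.68 for all. HSPA8, DNAJA1, DNAJB1 and HSPB1 lay wholly above vitrification I and HSPD1 wholly below, against 42.6% and 7.07% of all genes. The share of the 9 called higher there is close to the background, and it is not a result about these genes. Vitrification II against vitrification had 1 higher, PTGES3, and 0 lower, against 5.05% and 0.935% of all genes. The count there was 0 without fresh control replicate 3, either vitrification library or any 1 vitrification II library, 2 without fresh control replicate 1 or vitrification I replicate 2, and 3 when vitrification I lost replicate 3. Vitrification I against vitrification had 0 called by limma, with 2 of 9 at an unadjusted p under 0.05, against 1.21% of all genes called higher and 4.42% lower. It had 1, HSPB1 lower, without vitrification II replicate 3. The F test over the 4 groups called 5 of 9, HSPA8, HSPH1, DNAJB1, PTGES3 and HSPB1, against 42.7% of all genes. That call ended for DNAJB1 on the non-mitochondrial total (adjusted p = 0.0504), after quantile normalization (0.0987) and without vitrification II replicate 3 (0.0654), and for HSPB1 with no filter on low values (0.178), after quantile normalization (0.0977) and without vitrification I replicate 3 (0.0623). HSPD1 passed it on the non-mitochondrial total (0.0129) and after quantile normalization (0.0165).

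Of the 11 libraries, vitrification II replicate 3 held the highest value of 6 of the 9 genes, HSPA8, HSPH1, DNAJA1, DNAJB1, HSP90AB1 and HSPB1, and also that of HSP70.2. PTGES3 peaked in vitrification II replicate 2, HSPE1 in vitrification replicate 1 and HSPD1 in fresh control replicate 3. Summed, the 9 genes took 1.08% to 1.17% of the FPKM outside the mitochondrial genome in vitrification II, 0.886% to 1.15% in vitrification I, 0.935% to 1.27% in vitrification and 0.872% to 0.952% in fresh control. Every vitrification II library lay above every fresh control library in this share, while vitrification I and vitrification overlapped both.

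Ratios between 2 genes in a library stay the same when the library is multiplied by 1 factor, as on the non-mitochondrial total. Quantile normalization can change them. In vitrification II against fresh control it moved HSPA8 from 0.87 to 1.11 and DNAJA1 from 0.97 to 0.62. The ratios of FPKM below are given as descriptions. The ratio of HSPA8 to HSP90AB1, the constitutive HSP70 over the constitutive HSP90, was 8.68, 6.35 and 6.65 in vitrification II, 2.91, 3.05 and 2.40 in vitrification I, 2.97 and 2.26 in vitrification, and 4.16, 6.71 and 5.2 in fresh control. Vitrification I and vitrification lay below every fresh control and vitrification II library, which overlapped each other. The ratio of HSP90AB1 to its co-chaperone PTGES3 split the groups in another way. It was 2.70, 2.32 and 3.27 in vitrification II, 2.13, 4.14 and 2.54 in vitrification I, 8.26 and 8.81 in vitrification, and 7.33, 6.69 and 8.74 in fresh control. Vitrification II and vitrification I shared the low range, and vitrification shared the high range with fresh control.

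Within the HSP70 system, the ratio of HSPA8 to its exchange factor HSPH1 was 33.6, 18.5 and 19.5 in vitrification II, 12.7, 13.3 and 11.8 in vitrification I, 25.8 and 18.9 in vitrification, and 33.2, 63.4 and 45.0 in fresh control. Vitrification I had the lowest values with no overlap with another group. HSPA8 over DNAJA1 was 19.2 to 21.1 in vitrification II, 7.98 to 12.3 in vitrification I, 13.2 to 15.7 in vitrification and 16.0 to 34.2 in fresh control, which again put vitrification I lowest. HSPA8 over DNAJB1 did not follow this order, at 26.4 to 51.8 in vitrification II, 30.3 to 36.6 in vitrification I, 26.0 to 34.1 in vitrification and 38.3 to 78.4 in fresh control. HSPA8 over the mitochondrial HSPD1 was 5.098 to 7.18 in vitrification II, 0.788 to 1.37 in vitrification I, 1.34 to 1.72 in vitrification and 1.48 to 2.53 in fresh control. Vitrification II stood apart from all other libraries in that ratio, which holds for HSPD1 and not for mitochondrial chaperones in general. HSPA9, a mitochondrial chaperone of the list used below, was highest in vitrification II. It had 295 to 332 FPKM there and 87.6 to 160 in vitrification I. In vitrification it had 128 to 164 and in fresh control 137 to 218.

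**Figure D3:**
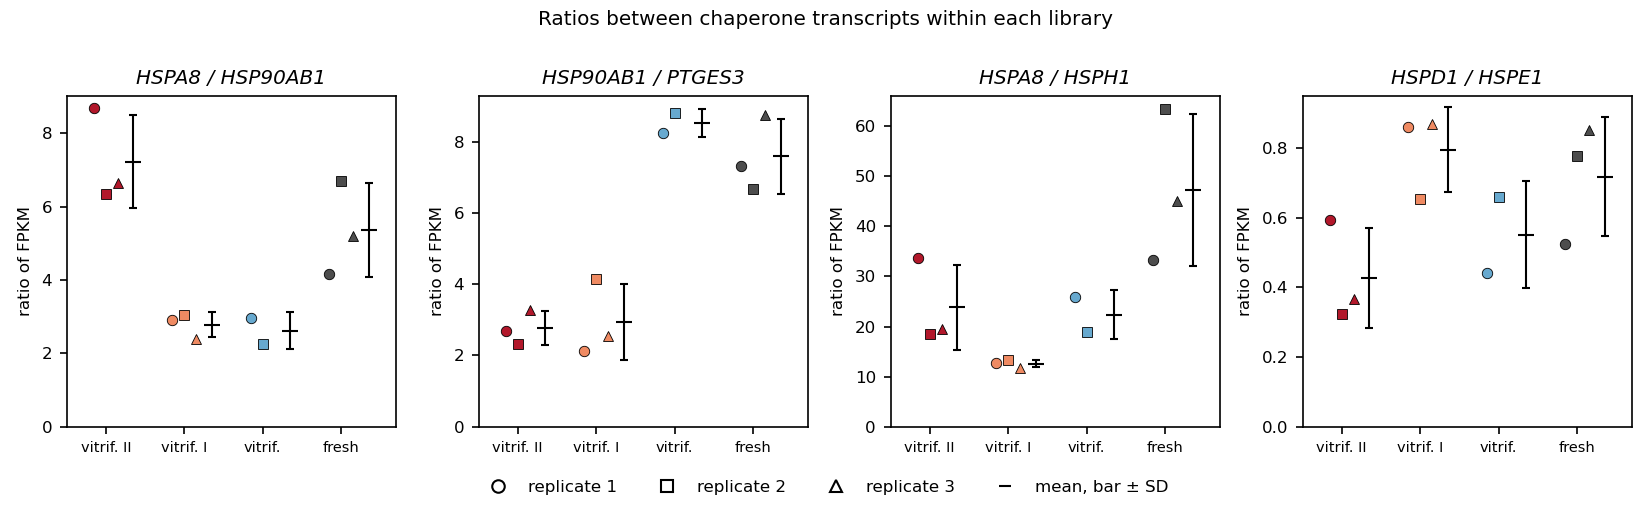
Ratio of FPKM between pairs of chaperone genes within each of the 11 libraries, with the mean and SD of each group. HSP90AB1 over PTGES3 lay between 2.13 and 4.14 in vitrification II and vitrification I and between 6.69 and 8.81 in vitrification and fresh control.

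Over the 11 libraries the Pearson r of log2 levels was 0.92 between HSPH1 and DNAJA1, 0.85 between DNAJA1 and DNAJB1, 0.80 between HSPA8 and DNAJB1 and 0.48 between HSPA8 and HSPH1. PTGES3 had an r of 0.88 with HSPH1 and of 0.19 with HSP90AB1, its HSP90 partner. HSPD1 had a negative r with all 7 cytosolic genes, between -0.68 with DNAJB1 and -0.32 with HSP90AB1. The libraries share their groups and scaling, so these values describe the data and are not tested. By the same measure, the genes most alike were sought among tested genes that carried a symbol. They were EML2 (0.99), RAB25 (0.97) and CDC42 (0.96) for HSPA8, TC2N (0.98), ACO1 (0.97) and SMAD5 (0.96) for HSPH1, and CSNK1G3, FBXO10 and BHLHE40 (0.97, 0.96 and 0.96) for DNAJB1. They were TRIM8, TMEM199 and RCC1 (each 0.94) for PTGES3 and ATP5ME, NDUFB2 and ATP5PF (0.89, 0.86 and 0.84) for HSPD1.

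Other genes of the chaperone network were taken from a list by role. Of 82 symbols 69 were in the table and 64 passed the filter, and HSP70.2 is not in these counts. In vitrification II against fresh control 13 rose and 0 fell, with a median of 0.76 where all genes had 0.62. This share did not exceed the 24.6% of all genes called higher. HSP90 co-chaperones made up 7 of the 13, out of 13 tested, with a median of 1.03. FKBP4, an immunophilin that links HSP90 to steroid receptors, rose by 1.25 ± 0.35 to 52.0 ± 10.6 FPKM in vitrification II, against 21.2 ± 3.54 in fresh control (SD, n = 3 each; limma, adjusted p = 0.0171). That call ended without fresh control replicate 2 (0.0845) or 3 (0.0533) or vitrification II replicate 1 (0.0718) and after quantile normalization (0.180). CDC37, which brings kinases to HSP90, and the HSP90-bound phosphatase PPP5C also passed (adjusted p = 0.0372 and 0.0456). Both calls ended without fresh control replicate 2 or 3 or any 1 vitrification II library, with an adjusted p of 0.0512 to 0.181, and that of PPP5C also without either vitrification library (0.0559 and 0.0556). The calls of CDC37 and PPP5C ended as well on the non-mitochondrial total (0.0979 and 0.120), after quantile normalization (0.288 and 0.530) and with a pseudocount of 0.1 (0.0597 and 0.192). They also ended with no filter on low values, and that of PPP5C with the replicate block. The calls of FKBP4, CDC37 and PPP5C held under 13, 8 and 5 of the 18 alternative fits.

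HSP70 family members and cofactors made up 4 of the 13, out of 12 tested, where 24.6% of all genes were called higher. The counts by role here come from small sets and were not tested against that share. They were HSPA4, HSPA13, HSPA14 and BAG3. The calls of HSPA4, HSPA13 and BAG3 held under 17, 11 and 13 of the 18 alternative fits. HSPA14, a ribosome-associated HSP70, rose by 2.22 ± 0.48 to 21.5 ± 2.69 FPKM in vitrification II, against 4.35 ± 3.05 in fresh control (SD, n = 3 each; limma, adjusted p = 0.005), a call that quantile normalization ended (0.0610). The small heat shock protein HSPB6 rose by 1.21 ± 0.38 (adjusted p = 0.0309), and its call ended without fresh control replicate 2 (0.118) or 3 (0.134) or vitrification II replicate 2 (0.111) or 3 (0.0725), on the non-mitochondrial total (0.0872), after quantile normalization (0.656) and with a pseudocount of 0.1 (0.0557). The HSPB6 call held under 9 of the 18 alternative fits. Of the cytosolic chaperonin TRiC, a ring that folds actin and tubulin, 1 of 7 subunits rose, and of 9 other J proteins, 5 prefoldin subunits, 12 mitochondrial chaperones and proteases and 3 heat shock transcription factors 0 did. At an unadjusted p under 0.05 limma had 2 of the J proteins, 0 prefoldin subunits, 2 mitochondrial genes and 0 transcription factors. The count of 13 was 3 without fresh control replicate 2, 6 without fresh control replicate 3 or vitrification II replicate 3, 7 when vitrification II lost replicate 2 and 8 when it lost replicate 1, 6 on the non-mitochondrial total and 2 after quantile normalization, where 1 also fell. After centring 1 rose and 1 fell. The calls of all genes moved as well, from 2319 higher in the main fit to 986 without fresh control replicate 2. They were 1191 on the non-mitochondrial total, 351 after quantile normalization and 341 after centring.

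In vitrification I against fresh control 10 of the 64 fell and 0 rose, with a median of -0.33 where all genes had -0.064 and 9.77% were called lower. They included 5 of 12 mitochondrial chaperones and proteases and 3 of 13 HSP90 co-chaperones. CLPP, the protease of the mitochondrial matrix, fell to 12.5 ± 8.03 FPKM in vitrification I, against 66.4 ± 3.67 in fresh control (SD, n = 3 each; log2 change -2.47 ± 0.43, limma, adjusted p = 0.00198). CDC37 fell by 1.89 ± 0.39 and PPP5C by 2.24 ± 0.45 on the log2 scale (adjusted p = 0.00466 and 0.00412), and BAG6, which guards newly made membrane proteins, by 1.57 ± 0.36 (adjusted p = 0.00954). These 4 calls held under all 18 alternative fits. The mitochondrial J protein DNAJA3, the protease HTRA2 and the exchange factor HSPBP1 fell as well (adjusted p = 0.0375, 0.0152 and 0.0357). The HTRA2 call ended without fresh control replicate 2 (0.0574) or 3 (0.0561), that of DNAJA3 without any 1 fresh control library (0.0622 to 0.104) or vitrification I replicate 1 (0.123) or 3 (0.0688), and that of HSPBP1 without any 1 fresh control library (0.0728 to 0.0840) or vitrification I replicate 3 (0.141). The count was 4 without fresh control replicate 2, 5 without replicate 3, 6 without fresh control replicate 1 or vitrification I replicate 1 or 3, and 16 when vitrification I lost replicate 2. On the non-mitochondrial total 5 fell and 3 rose, and the calls of DNAJA3 (0.180) and HSPBP1 (0.0837) ended there too. With no filter on low values the calls of HTRA2, DNAJA3 and HSPBP1 ended, and with 2 groups only those of DNAJA3 and HSPBP1. The DNAJA3 call also ended with the replicate block. These calls held under 15, 9 and 11 of the 18 alternative fits. Of all genes 919 were called lower in the main fit, 458 without fresh control replicate 2 and 503 on the non-mitochondrial total.

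Vitrification II against vitrification I had 33 of the 64 higher and 0 lower, where 34.7% of all genes were called higher and the medians were 1.09 for the list and 0.68 for all genes. Named genes whose call there held under all 18 alternative fits were CDC37, PPP5C and FKBP4 of the HSP90 system (3.06 ± 0.39, 3.52 ± 0.45 and 2.08 ± 0.35), BAG6, HSPA14 and HSPBP1 of the HSP70 system (2.52 ± 0.36, 2.69 ± 0.48 and 3.05 ± 0.52), TCP1 and CCT5 of TRiC (1.85 ± 0.38 and 1.83 ± 0.37), and CLPP and DNAJA3 of mitochondria (2.41 ± 0.43 and 2.07 ± 0.39). The limma adjusted p of these 10 lay between 8.3e-05 and 0.00181. CRYAB and HSPB8, 2 small heat shock proteins, were listed at 0 in all 3 vitrification I libraries and at 0.72 to 59.7 and 3.92 to 12.2 FPKM in vitrification II. Values of 0 were not particular to vitrification I. CRYAB had 0 to 9.77 FPKM in fresh control and 0 to 14.5 in vitrification, and HSPB8 had 0 to 14.8 and 0 to 6.78. The calls of CRYAB and HSPB8 in vitrification II against vitrification I held under 10 and 12 of the 18 alternative fits. On the non-mitochondrial total 19 of the 64 were higher and 0 lower, and after quantile normalization 18 and 6, and after centring 13 and 5. For all genes these settings gave 1552 higher and 711 lower, 1378 and 1282, and 1093 and 1550. In vitrification against fresh control limma called 0 of the 64, with 5 at an unadjusted p under 0.05. Of all genes only 1.25% were called higher and 0.117% lower there, so the 0 is not a result about chaperones. Over vitrification, vitrification II had 5 of the 64 higher and 0 lower and vitrification I 0 higher and 3 lower, where 5.05% of all genes were called higher in the first and 4.42% lower in the second. Both shares are near those of all genes. The 5 became 0 without either vitrification library, without any 1 vitrification II library, with a pseudocount of 0.1 and on the non-mitochondrial total, 3 and 1 without fresh control replicates 2 and 3, and 8 to 10 without fresh control replicate 1 or vitrification I replicate 2 or 3. The 3 became 0 without either vitrification library or vitrification I replicate 1, 1 without vitrification I replicate 3, and 2 without fresh control replicate 2 or 3 or any 1 vitrification II library.

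**Figure D4:**
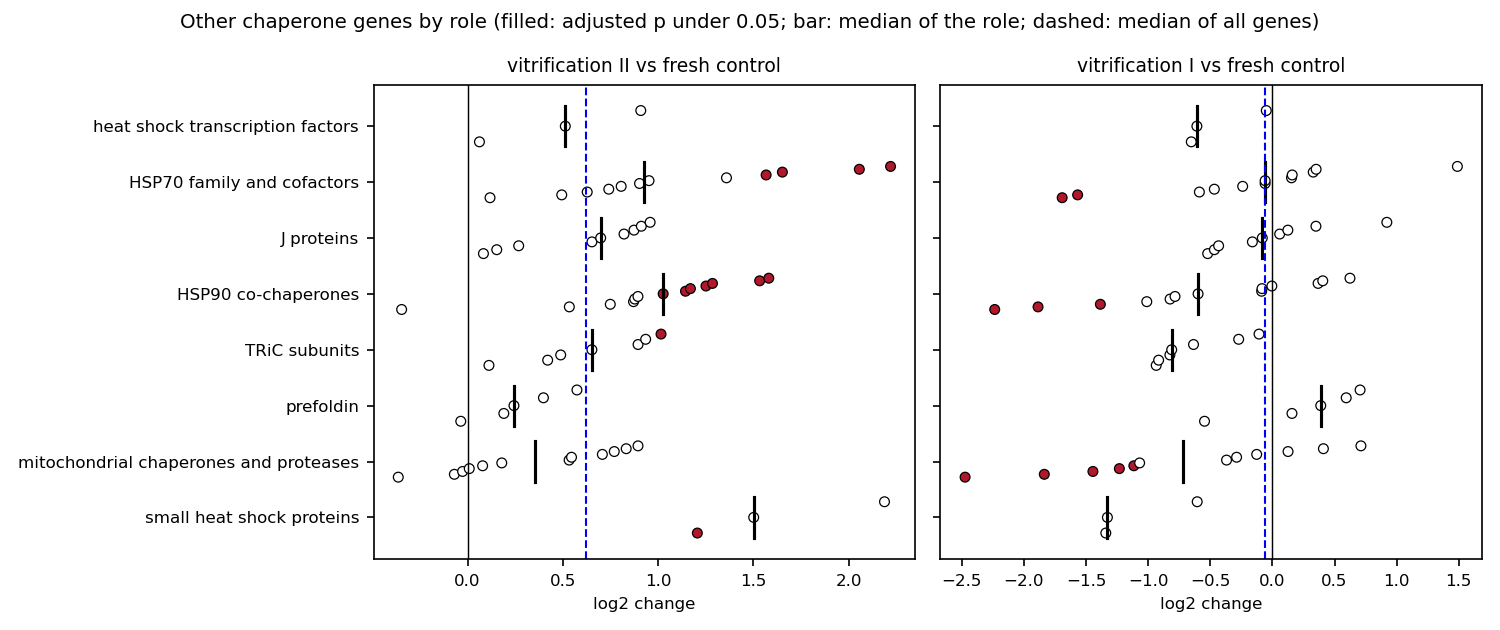
Log2 change of 64 other chaperone genes (points), grouped by role, in vitrification II (left) and vitrification I (right) against fresh control. Filled points passed an adjusted p under 0.05, short bars are the median of each role and the dashed line is the median of all genes. Called genes were higher in vitrification II (13, where 24.6% of all genes were) and lower in vitrification I (10, where 9.77% were).

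**Figure D5:**
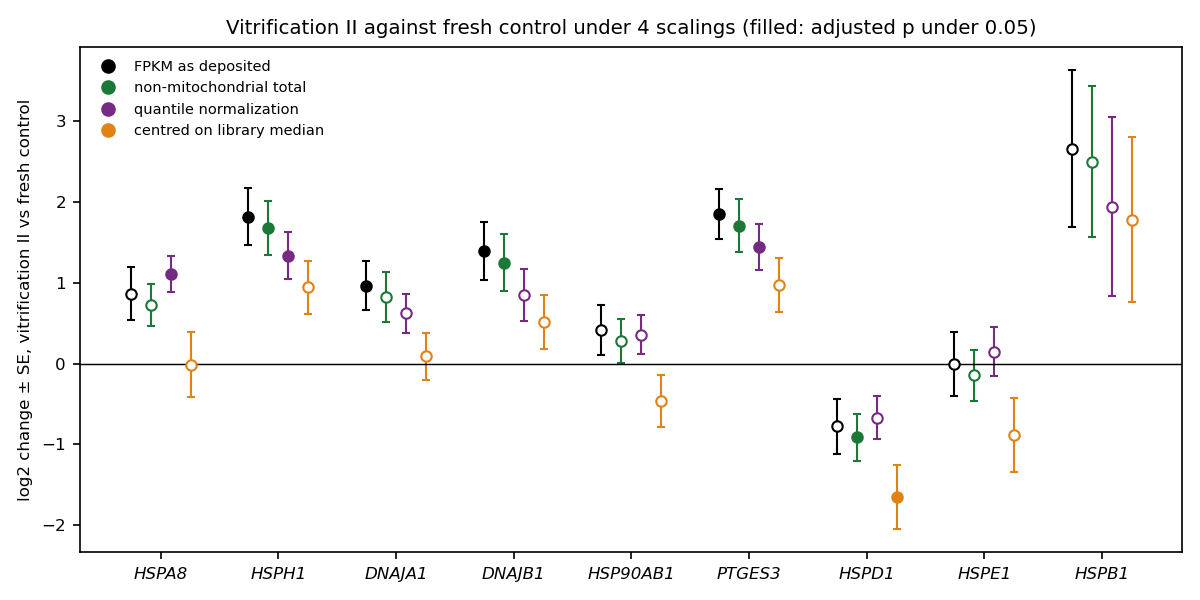
Log2 change ± SE of the 9 genes in vitrification II against fresh control under 4 scalings, filled where the adjusted p was under 0.05. HSPH1 and PTGES3 stayed filled under the first 3 scalings, none of the rises was filled once libraries were centred on their median, and HSPD1 was filled on the non-mitochondrial total and the centred scale.

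Scaling changed several of these calls. With each library centred on the median log2 level of all genes tested, an alternative chosen after seeing the data, HSPH1 and PTGES3 in vitrification II against fresh control were at 0.94 and 0.97 and no longer called (adjusted p = 0.0775 and 0.0787), DNAJB1 was at 0.51 (0.324) and DNAJA1 at 0.088 (0.871). HSPD1 was at -1.65 and called lower (adjusted p = 0.0216). The rise of PTGES3 in vitrification I against fresh control was called under all 18 alternative fits, with changes of 1.31 to 1.92 and adjusted p = 0.00106 to 0.0414. The higher level of HSPA8 in vitrification II than in vitrification I was called under 17 of 18, the exception being the centred scale (0.95, adjusted p = 0.0914). HSP70.2 was called higher in vitrification II than in vitrification I under all 18, with changes of 2.02 to 3.05, and against fresh control under 17, the exception again being the centred scale (0.93, adjusted p = 0.120).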

How the data were processed

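Smart-Seq2 libraries of pig parthenogenetic blastocysts were sequenced as paired ends. The authors deposited 1 table of FPKM per gene and library. FastQC, TopHat2 2.0.13, Cufflinks 2.2.1 and DESeq2 are named in the submitters' processing notes, without their roles, and the genome build is not given in the sources used here. The table held 11 of 12 libraries, 0 further sample columns and 0 identical pairs. Depth is unknown, so no counting interval is given. The 10 genes, the other lists and the tests were chosen with earlier results of these data known.

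Of 31781 identifiers 15347 carried a symbol. FPKM were analysed as log2(FPKM + 1), keeping genes at 1 FPKM or more in at least 3 libraries (9411). One mean per group was fitted with limma 3.58.1 in R 4.3.3 (trend), tested two-sided with Benjamini-Hochberg adjustment over all genes kept, after a check on simulated data. The 18 alternative fits were a pseudocount of 0.1, no filter, the FPKM total outside the mitochondrial genome, quantile normalization, 2 groups only, a replicate block, centring on the library median (added later) and each of 11 libraries left out. A left-out library of vitrification leaves 1, assumed to vary like the other groups. All 10 genes are named, and of the other list at most 3 called genes per role with the smallest F test p. HSPA4, HSPA13 and BAG3 are named beyond that rule, to complete a count. HSPA6 and HSPA9 are also named beyond it, for their levels beside HSP70.2 and HSPD1.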

Additional observations from a re-analysis of the deposited data

How the results depend on the processing

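The count of chaperone genes called, in either direction, moved by more than 1.5 times as follows. In vitrification I against fresh control it was 2 on the non-mitochondrial total and after quantile normalization, with HSPH1 added, and 1 to 2 with 1 library left out. In vitrification II against fresh control it was 1, HSPD1 lower, with libraries centred on their median, and 2 to 5 with 1 library left out. In vitrification I against vitrification it was 1 with no filter on low values (PTGES3 higher) and with 2 groups only (HSPB1 lower), and 0 to 1 with 1 library left out. In vitrification II against vitrification it was 0 with a pseudocount of 0.1, on the non-mitochondrial total, with the replicate block and after centring, and 0 to 3 with 1 library left out. In vitrification II against vitrification I the 3 higher and 0 lower became 1 higher (HSPB1) and 1 lower (HSPD1, -1.52, adjusted p = 0.0139) after centring. The F test count was 2 after centring. Calls of all genes moved as well. In vitrification II against vitrification 475 of all genes were higher in the main fit. They were 37 with a pseudocount of 0.1, 41 on the non-mitochondrial total, 334 with the replicate block and 121 after centring. In vitrification II against fresh control 2319 were higher and 103 lower in the main fit, and 341 and 662 after centring. For vitrification I against fresh control 833 higher and 919 lower became 1361 and 503 on the non-mitochondrial total. They became 1085 and 1100 after quantile normalization. For vitrification I against vitrification 114 and 416 became 45 and 131 with 2 groups only. With no filter they were 81 and 840 of 24211 genes. For vitrification II against vitrification I 3261 and 353 became 1093 and 1550 after centring. The cause was not tested.

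In vitrification II against fresh control the sign turned, with no call, for HSPA8 and HSP90AB1 after centring (-0.012 and -0.46) and HSPE1 after quantile normalization (0.15). In vitrification II against vitrification I it turned for HSP90AB1, PTGES3 and HSPE1 on the non-mitochondrial total (-0.26, -0.21 and -0.42), after quantile normalization (-0.16, -0.089 and -0.30) and after centring (-0.42, -0.38 and -0.58), and for DNAJA1 after centring (-0.11). In vitrification I against fresh control it turned on the non-mitochondrial total for DNAJB1, HSPD1 and HSPE1 (0.27, 0.44 and 0.28), after quantile normalization for HSPD1 and HSPE1 (0.63 and 0.45) and after centring for HSP90AB1 (-0.039). In vitrification against fresh control it turned for HSPD1 on the non-mitochondrial total (0.12), for HSPA8 and HSPD1 after quantile normalization (0.019 and 0.28) and for DNAJA1 and HSPE1 after centring (-0.17 and -0.11).

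With 1 library left out, signs turned for HSPE1 in all 6 comparisons, with ranges of -0.19 to 0.18 (vitrification II against fresh control), -0.41 to 0.057 (vitrification I against fresh control), -0.47 to 0.95 (vitrification against fresh control), -1.17 to 0.25 (vitrification I against vitrification), -0.96 to 0.47 (vitrification II against vitrification) and -0.061 to 0.41 (vitrification II against vitrification I). HSPD1 ranged from -0.21 to 0.15 in vitrification I and from -0.56 to 0.28 in vitrification, both against fresh control, and from -0.34 to 0.51 in vitrification I against vitrification. HSP90AB1 ranged from -0.14 to 0.13 in vitrification I against fresh control, DNAJA1 from -0.023 to 0.20 in vitrification I against vitrification and HSPB1 from -0.72 to 2.08 in vitrification II against vitrification.

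Deviations of same-numbered libraries from their group means had r of -0.16 to 0.14 over 15 pairs, with 2 over 0.1. Libraries of unlike number were not compared in this way, so whether a replicate number marks a shared batch was not tested. With the replicate block, the calls of DNAJA1 in vitrification II against fresh control (adjusted p = 0.0573) and PTGES3 in vitrification II against vitrification (0.0526) were lost, and HSPB1 in vitrification II against fresh control was called (0.0449). Depth is not known, so what it limits could not be measured, and groups of 2 or 3 libraries limit every comparison.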
